A study of Mus musculus with 84 samples.

Results

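The 48 genes described here encode the machinery that copies DNA in S phase. They were chosen by name, for the known role of their products in copying DNA, with earlier results of these data known. All 48 are among the 18909 genes of the count table. Before a cell divides it copies its genome: licensing factors (the origin recognition complex, Cdc6 and Cdt1) load the ring-shaped MCM helicase onto replication origins, and cyclin E kinases with further factors then switch the ring on. Primase and DNA polymerases, held on DNA by the sliding clamp Pcna, build the new strands, while other enzymes supply deoxynucleotides, join the fragments of the lagging strand and pack the copies into chromatin. Many of these genes are transcribed together under E2F transcription factors, and mouse embryonic stem cells (ESCs) are known for a short cell cycle spent largely in S phase.

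The study asked how active SMAD3, a transcription factor of the TGF-beta pathway, acts on the reprogramming of mouse embryonic fibroblasts (MEFs) to pluripotent cells. RNA 5′ ends were sequenced by STRT RNA-seq in 10 groups of 3 replicates, all on strain background 129. The MEF group was wild-type fibroblasts grown with FGF2 and heparin and without LIF. The ESC group was the line TNG-MKOS grown with LIF: 1 line, in which a Nanog-GFP reporter replaces an allele of Nanog and the Sp3 locus holds doxycycline-inducible c-Myc, Klf4, Oct4 and Sox2 (MKOS) with the orange reporter mOrange. The reprogramming groups were fibroblasts carrying the same cassette, taken from chimeric embryos and mixed with wild-type MEFs, in ES cell medium with doxycycline (300 ng/ml) and vitamin C, sorted for mOrange on day 3, 6, 8 or 10. Cont cells carried a control vector for blue fluorescent protein (BFP), and +Sm3CA cells a vector for constitutively active Smad3. MEF and Cont day 3 therefore differ in transgenes, medium, doxycycline and the sort as well as in time, and these cannot be told apart. Cont day 10 and ESC likewise differ in the origin of the cells, the control vector, doxycycline, vitamin C and the sort. MEF and ESC differ in the origin of the cells, transgenes and medium. These too cannot be told apart.

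Each library held 1008596 to 2296059 reads (median 1602511). MEF libraries held 1613165, 1598061 and 1666346 reads, and ESC libraries 2045460, 1104551 and 1326979. Cont libraries held 1773463, 1288666 and 1935592 at day 3, then 2216192, 1588047 and 1644225 at day 6, 1304562, 1413897 and 2296059 at day 8 and 1178845, 1139335 and 1434427 at day 10. +Sm3CA libraries held 1784676, 1762544 and 1430305 at day 3, then 1606961, 1851460 and 1154361 at day 6, 2208394, 1973278 and 1885517 at day 8 and 1008596, 1349752 and 1012324 at day 10. Levels below are normalized counts, which are read counts divided by a size factor for each library, given in the order of replicates 1, 2 and 3. A gene is called higher or lower where its edgeR p, adjusted over all genes tested, is under 0.05. Fold changes are on the log2 scale and compare 3 libraries with 3, or fewer where a library is left out. Their standard error (SE) was derived from the edgeR test statistic, whose spread is estimated over all libraries in the fit.

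The labelled cell types were checked against their markers, whose summed levels are given from the lowest library to the highest. The 10 fibroblast markers summed to 4260, 4680 and 5860 normalized counts in the MEF libraries, led by Col1a2, and to 3.86, 5.48 and 7.23 in the ESC libraries, where Col1a2, Col3a1, Lum and Twist2 were at 0. The 10 markers of pluripotent cells summed to 8.89, 11.9 and 12.1 in MEF and to 29700, 33100 and 54300 in ESC, led by Dppa5a in both. ESC replicate 2 stood apart from the other ESC libraries. Its mean correlation with its group was 0.896 across genes, against 0.922 to 0.968 for the other 29 libraries, and over the 48 replication genes its median distance from the group was 0.635 on the log2 scale, against at most 0.407 elsewhere. Each ESC result is therefore given with and without it.

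The replication genes took the smallest share of reads in the fibroblasts and the largest in ESCs. Together the 48 genes held 0.162, 0.185 and 0.17% of the reads in the MEF libraries. In Cont day 3 they held 0.26, 0.253 and 0.234%, in Cont day 6 0.218, 0.223 and 0.272%, in Cont day 8 0.215, 0.209 and 0.22% and in Cont day 10 0.287, 0.256 and 0.303%. Every Cont library was above every MEF library, and Cont day 8 lay below days 3 and 10 without overlap. In +Sm3CA the share was 0.31, 0.25 and 0.27% at day 3, then 0.265, 0.262 and 0.28% at day 6, 0.274, 0.305 and 0.268% at day 8 and 0.293, 0.316 and 0.351% at day 10. It was 0.559, 0.415 and 0.62% in ESC, each library above every other library of the series, with or without replicate 2. By group mean, 41 of the 48 genes were highest in ESC (44 without ESC replicate 2) and 27 were lowest in MEF. Of all 10979 genes tested, 26.4% were highest in ESC (24.9% without ESC replicate 2) and 23.6% lowest in MEF. Fewer cells in S phase and less of these RNAs in each cell cannot be told apart in bulk libraries.

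**Figure D1:**
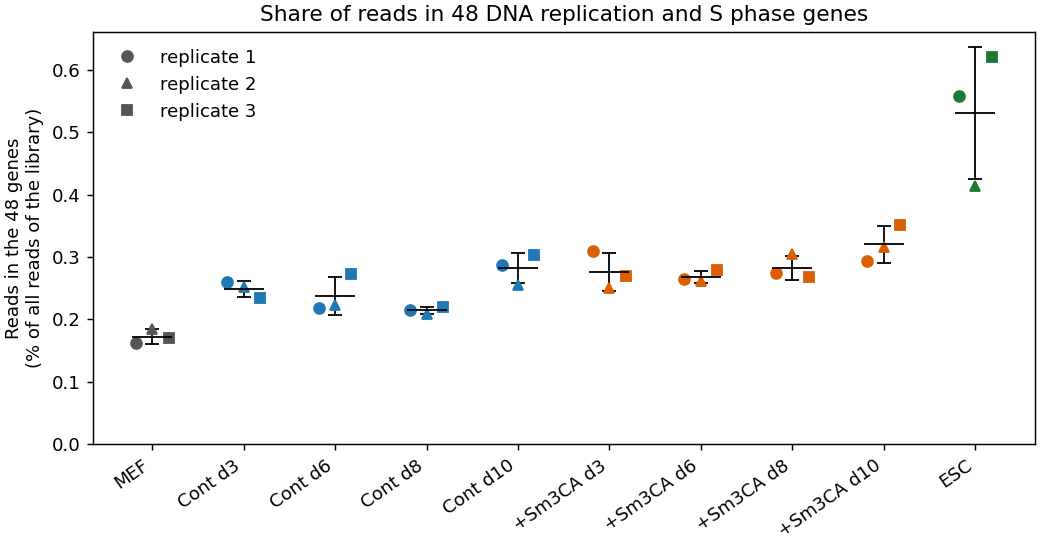
Percent of each library's reads that fell in the 48 replication genes (y axis) for the 10 groups (x axis), with a point for each library and bars for the group mean ± SD of 3 libraries. The mean was 0.172% in MEF, 0.249% in Cont day 3, 0.282% in Cont day 10, 0.320% in +Sm3CA day 10 and 0.531% in ESC.

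The step from MEF to Cont day 3 asks what had changed in the sorted cells after 3 days of doxycycline. All 4 licensing genes, 5 of 7 clamp and clamp loader genes and both lagging-strand genes rose, 4 of 6 MCM subunits did not pass the test, and Tk1, a thymidine-salvage enzyme, fell. In edgeR 22 of the 48 genes were called higher, where 22.6% of all 10979 genes tested were, and 1 lower, where 20.9% were. The median log2 fold change of the 48 genes was 0.81, against 0.00 over all genes tested, and 39 of the 48 were positive. Leaving out 1 library at a time gave 19 to 24 called, and 1 well per replicate gave 14 called, against 23. With DESeq2 size factors 2195 of all genes tested were called higher and 2632 lower, and with total counts alone 2235 and 2457, against 2480 and 2290 with the TMM scaling used here. The 48 genes then had 21 higher and 1 lower, and 20 higher and 1 lower.

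All 4 licensing genes were called higher, with a median log2 fold change of 1.46. Cdt1, which brings the MCM ring to origins, had 5.55, 5.43 and 8.64 normalized counts in MEF and 22.3, 19.5 and 27.6 in Cont day 3. The lowest Cont day 3 library held more than the highest MEF library. Its log2 fold change was 1.91 ± 0.42 (SE, adjusted p = 0.000239). Cdc6 had 6.67, 10.9 and 6.05 normalized counts in MEF and 12.5, 11.7 and 27.6 in Cont day 3. Cdc6, the loader that works with Cdt1, also did not overlap between the groups and was called higher. Cdc6 was not called without MEF replicate 1, MEF replicate 3 or Cont day 3 replicate 3 (log2 fold change 1.15, 1.14 and 0.70, adjusted p = 0.0875, 0.0942 and 0.333). Orc6, a subunit of the origin recognition complex, had 230, 207 and 175 in MEF and 326, 403 and 273 in Cont day 3. Its libraries were higher in Cont day 3 without overlap, at a log2 fold change of 0.83 ± 0.23 (SE, adjusted p = 0.00271). Orc6 was not called with 1 well per replicate (log2 fold change 0.53), with adjusted p from 0.000593 to 0.0867 over 13 alternative settings.

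In the MCM ring, the helicase that unwinds the origin, 2 of 6 subunits were called higher (Mcm5 and Mcm6), and the median was 0.27. Mcm5 had 32.2, 32.6 and 43.2 normalized counts in MEF and 72.2, 97.3 and 69.9 in Cont day 3. Mcm6 had 54.4, 32.6 and 47.5 normalized counts in MEF and 106, 92.1 and 102 in Cont day 3. Both were higher in each Cont day 3 library than in any MEF library. Mcm4 had 53.3, 73.8 and 68.3 normalized counts in MEF and 77.6, 77.8 and 77.2 in Cont day 3. Mcm4 was higher in Cont day 3 without overlap but did not pass the test. Mcm2 had 32.2, 21.7 and 47.5 normalized counts in MEF and 32.1, 25.9 and 23.6 in Cont day 3. Mcm3 had 32.2, 42.3 and 38 normalized counts in MEF and 33, 38.9 and 21.1 in Cont day 3. Mcm7 had 32.2, 49.9 and 32.8 normalized counts in MEF and 25, 48 and 46.3 in Cont day 3. The libraries of these 3 subunits overlapped between MEF and Cont day 3. Of the 6 genes that turn the loaded ring into a working helicase, Mcm10, Gins1 and Gins3 were called higher, and the median was 0.77. Mcm10, which is needed for origin unwinding, had 6.67, 6.51 and 6.05 in MEF and 26.7, 25.9 and 24.4 in Cont day 3. All 3 Cont day 3 libraries were above the MEF libraries, at a log2 fold change of 2.10 ± 0.43 (SE, adjusted p = 9.08e-05), the largest rise among the 48 genes in this step that passed the test. Gins3, a subunit of the GINS complex, was not called without MEF replicate 3, Cont day 3 replicate 1 or Cont day 3 replicate 2 (log2 fold change 1.13, 1.33 and 1.34, adjusted p = 0.137, 0.0997 and 0.0819).

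Of the 7 clamp and clamp loader genes, 5 were called higher (Pcna, Rfc1, Rfc3, Rfc4 and Rfc5), with a median of 1.19. Pcna had 294, 340 and 161 normalized counts in MEF and 509, 467 and 463 in Cont day 3. Pcna, the clamp itself, was above the MEF range in every Cont day 3 library. Rfc4, a loader subunit, had 48.9, 81.4 and 58.8 in MEF and 213, 189 and 180 in Cont day 3. It was higher in Cont day 3 without overlap, at a log2 fold change of 1.74 ± 0.26 (SE, adjusted p = 4.43e-07). Of the 8 polymerase and primase genes, Pola1, Prim2 and Pold2 were called higher, with a median of 0.82. Prim2, the large primase subunit, had 37.8, 68.4 and 32 in MEF and 77.6, 68.7 and 70.7 in Cont day 3. The ranges nearly touched, at a log2 fold change of 0.78 ± 0.32 (SE, adjusted p = 0.0456). Prim2 was not called without MEF replicate 1, MEF replicate 3, Cont day 3 replicate 1, Cont day 3 replicate 2 or Cont day 3 replicate 3 (log2 fold change 0.61, 0.58, 0.68, 0.79 and 0.75, adjusted p = 0.183, 0.205, 0.14, 0.0734 and 0.102), nor with DESeq2 size factors, scaling by total counts alone, 1 well per replicate, DESeq2 or the replicate block (log2 fold change 0.66, 0.71, 0.77, 0.66 and 0.78), with adjusted p from 0.013 to 0.205 over 13 alternative settings. Pola1, the catalytic subunit of polymerase alpha, was not called without MEF replicate 2 (log2 fold change 0.70, adjusted p = 0.109). Of the 3 subunits of RPA, which coats single-stranded DNA, Rpa2 was called higher, and the median was 0.05. Fen1 and Lig1, which trim and seal lagging-strand fragments, were both called higher, with a median of 1.11. Fen1 was not called without Cont day 3 replicate 1 (log2 fold change 0.77, adjusted p = 0.0527). Neither fork factor, Wdhd1 or Tipin, was called by edgeR, with 2 at an unadjusted p under 0.05 and 0 called by DESeq2.

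In deoxynucleotide supply, Tk1 fell. Of the 5 genes, 0 were called higher by edgeR or by DESeq2, with 0 of the other 4 at an unadjusted p under 0.05, and 1 was called lower, with a median of 0.00. Tk1 had 72.2, 82.5 and 43.2 in MEF and 13.4, 13 and 8.13 in Cont day 3. Every Cont day 3 library was below every MEF library, at a log2 fold change of -2.40 ± 0.38 (SE, adjusted p = 1.73e-06). Rrm2 had 282, 262 and 195 normalized counts in MEF and 243, 223 and 194 in Cont day 3. Tyms had 186, 216 and 150 normalized counts in MEF and 185, 214 and 143 in Cont day 3. Rrm2, a subunit of ribonucleotide reductase, and Tyms, which makes thymidylate, overlapped between the groups. Cyclin E drives entry into S phase. Ccne1 had 47.8, 38 and 48.4 normalized counts in MEF and 25, 46.7 and 23.6 in Cont day 3. Ccne2 had 86.7, 115 and 50.1 normalized counts in MEF and 136, 196 and 139 in Cont day 3. Ccne2 was higher in Cont day 3 without overlap and was called higher, and Ccne1 overlapped and was not called. Chaf1a had 21.1, 4.34 and 29.4 normalized counts in MEF and 10.7, 10.4 and 23.6 in Cont day 3. Slbp had 36.7, 53.2 and 51 normalized counts in MEF and 51.7, 29.8 and 33.3 in Cont day 3. Chaf1a, a histone chaperone subunit, and Slbp, which binds histone mRNA, overlapped between the groups. Chaf1b, the partner of Chaf1a, was called higher, but not without MEF replicate 3 or Cont day 3 replicate 1 (log2 fold change 1.07 and 1.03, adjusted p = 0.0614 and 0.0746).

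**Figure D2:**
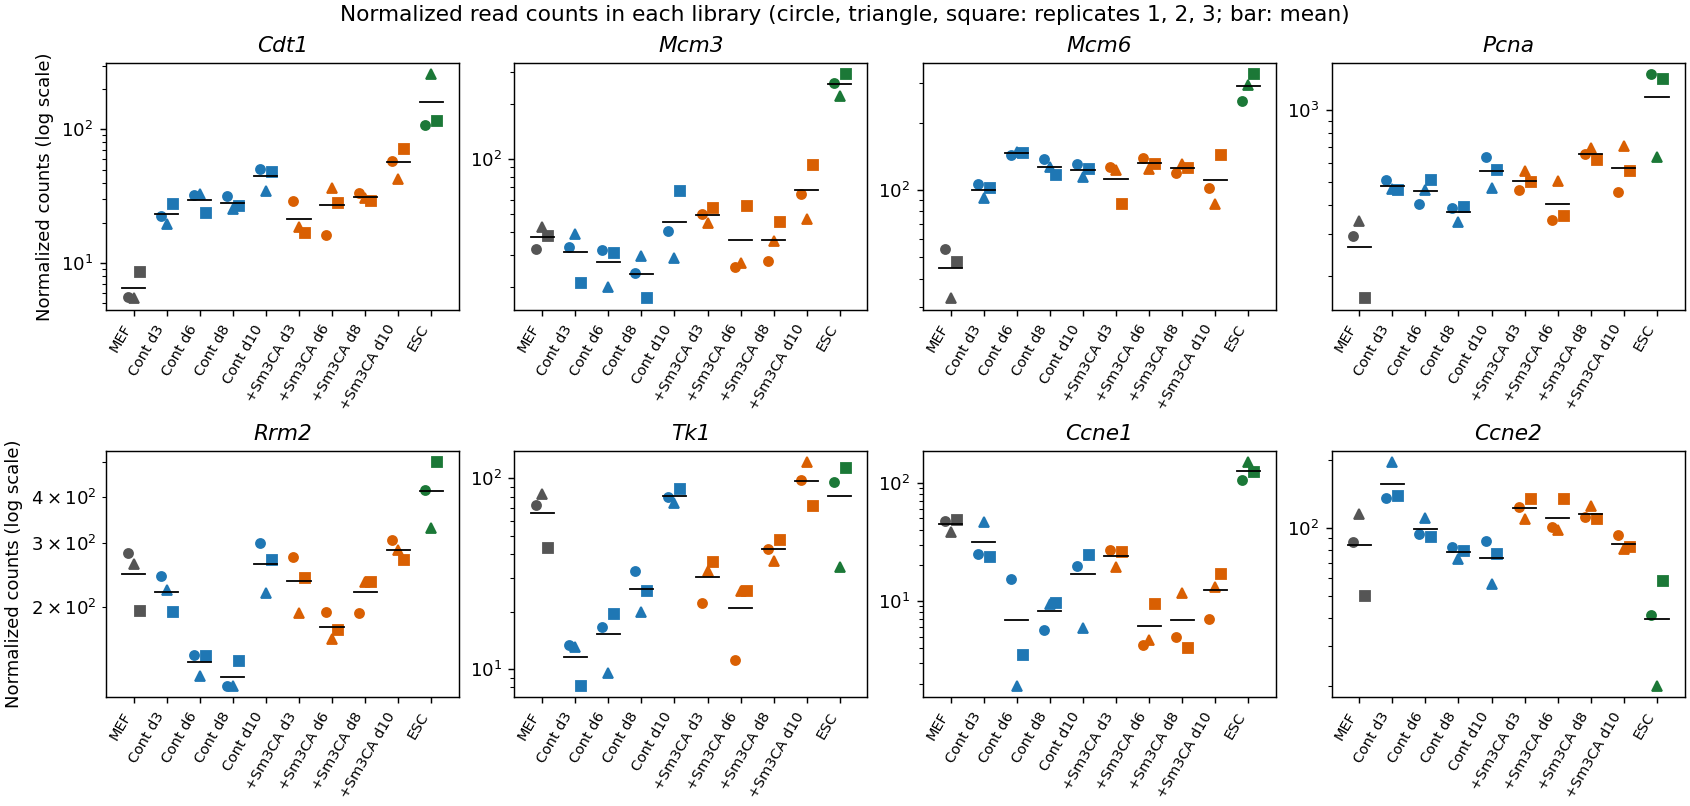
Normalized counts (y axis, log scale) of Cdt1, Mcm3, Mcm6, Pcna, Rrm2, Tk1, Ccne1 and Ccne2 in the 30 libraries by group (x axis), with a point for each library and bars for group means. Cdt1 ran from 5.43 to 8.64 in MEF and from 107 to 258 in ESC, and Ccne2 from 136 to 196 in Cont day 3 and from 19.9 to 57.9 in ESC.

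The steps between Cont days ask how the replication genes moved as reprogramming went on. From day 3 to day 6 Ccne1 fell, from day 6 to day 8 no gene of the 48 passed the test, and from day 8 to day 10 Mcm4, Prim1, Rrm2, Tk1 and Dut rose. From day 3 to day 6 edgeR called 0 of the 48 genes higher, where 2.94% of all genes tested were, and 1 lower, where 1.98% were, with 10 at an unadjusted p under 0.05 in either direction and 3 called lower by DESeq2. With the replicate number as a block, 6 were called, all lower, where 9.03% of all genes tested were called in either direction. For the steps between days the block was fitted on the 24 reprogramming libraries (10237 genes tested), so both the block and the set of libraries differ from the other counts. A fit of the 2 groups alone called 10 of the 48, 1 of them higher (Mcm6) and 9 lower, where 1616 of all genes tested were called, against 540 with all 30 libraries in the fit. The median was -0.15 against 0.02 over all genes. Of the 6 epithelial markers, 5 were called higher (Epcam, Cdh1, Krt8, Cldn4 and Cldn7), and their summed level, led by Krt8, was 160, 166 and 185 on day 3 and 880, 883 and 1040 on day 6. Of the 10 fibroblast markers, 1 was called higher (Lum) and 1 was called lower (Col1a1), and their summed level, led by Dcn, was 929, 1320 and 1370 on day 3 and 1070, 1070 and 1270 on day 6. The part of these cells in the fall of Ccne1 was not tested. From day 6 to day 8 edgeR and DESeq2 each called 0, where 0.92% of all genes tested were called higher and 0.0546% lower by edgeR, with 3 at an unadjusted p under 0.05. The replicate block also called 0 there, where 1.64% of all genes were called. The median was -0.15 against 0.03. From day 8 to day 10 edgeR called 5 higher, where 0.92% of all genes tested were, and 0 lower, where 0.337% were. DESeq2 called 5 higher and 0 lower, and 9 genes had an unadjusted p under 0.05 in edgeR. The block called 6, where 2.5% of all genes were called, adding Pcna at 0.57 ± 0.16 (adjusted p = 0.0416). The median was 0.29 against 0.00. Of the 10 pluripotent markers, 6 were called higher (Nanog, Zfp42, Dppa5a, Dppa4, Tdgf1 and Fbxo15), and their summed level, led by Zfp42 and then Dppa5a, was 65, 78.1 and 80.2 on day 8 and 417, 617 and 1000 on day 10. Of the 6 epithelial markers, 1 was called higher (Cldn7), and their summed level, led by Krt8, was 694, 730 and 783 on day 8 and 830, 904 and 1050 on day 10. The neural marker Mbp was called lower, at a log2 fold change of -5.22 ± 0.75 (SE, adjusted p = 2.05e-05). Their part in the changes of the 5 replication genes was not tested.

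Cdc6 and Cdt1 kept overlapping ranges until day 8. Cdc6 was at 11.1, 16.3 and 18.4 at day 6, then 22.6, 8.44 and 23.9 at day 8 and 23.5, 26.3 and 22.6 at day 10. Each day overlapped the day before. Cdt1 was at 32.5, 32.6 and 23.7 at day 6, then 31.7, 25.3 and 26.8 at day 8 and 50.6, 34.6 and 48.1 at day 10. Its day 10 libraries lay above those of day 8, but the step did not pass the test. In the MCM ring, Mcm4 was at 42.9, 44 and 50.1 at day 6, then 34, 30.6 and 48.9 at day 8 and 85.2, 81.2 and 70.7 at day 10. Every day 6 library of Mcm4 was below every day 3 library, and every day 10 library above every day 8 library. The day 3 to day 6 step of Mcm4 passed with the replicate block, at -0.76 ± 0.25 (adjusted p = 0.0428). The rise from day 8 to day 10 had a log2 fold change of 1.00 ± 0.27 (SE, adjusted p = 0.0445). Mcm4 was not called without Cont day 8 replicate 1, Cont day 8 replicate 2, Cont day 10 replicate 1, Cont day 10 replicate 2 or Cont day 10 replicate 3 (log2 fold change 0.93, 0.88, 0.93, 0.99 and 1.08, adjusted p = 0.215, 0.234, 0.116, 0.129 and 0.0953), nor with scaling by total counts alone or 1 well per replicate (log2 fold change 1.07 and 0.84), with adjusted p from 0.0163 to 0.234 over 13 alternative settings. Mcm2 was at 23.5, 40.2 and 30.7 at day 6, then 37.4, 24.3 and 35.8 at day 8 and 39.5, 50.2 and 71.6 at day 10. Mcm3 was at 31.8, 20.1 and 30.7 at day 6, then 23.8, 29.5 and 17.3 at day 8 and 40.7, 28.7 and 66.9 at day 10. Mcm5 was at 58.8, 44 and 94.9 at day 6, then 75.9, 55.9 and 47.7 at day 8 and 51.9, 47.8 and 95.2 at day 10. Mcm3 and Mcm5 overlapped in each step, and Mcm2 on day 10 was above day 8. Mcm6 was at 143, 148 and 146 at day 6, then 137, 127 and 116 at day 8 and 131, 114 and 124 at day 10. Mcm7 was at 42.2, 43.1 and 50.9 at day 6, then 41.9, 49.6 and 50.1 at day 8 and 60.5, 35.8 and 65 at day 10. Mcm6 was higher on day 6 than on day 3 and lower again on day 8, without overlap in either step, and Mcm7 overlapped throughout. None of these 5 subunits was called by edgeR in a Cont day step with all 30 libraries in the fit. Mcm6 was called higher from day 3 to day 6 in the fit of those groups alone.

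Pcna was at 404, 461 and 509 at day 6, then 389, 338 and 393 at day 8 and 633, 472 and 561 at day 10. Pcna was lowest on day 8, below every library of days 6 and 10. Prim1, the catalytic primase subunit, was at 56.6, 41.2 and 40 on day 8 and 133, 95.6 and 106 on day 10. It was higher on day 10 in every library, at a log2 fold change of 1.26 ± 0.27 (SE, adjusted p = 0.00731). Among the deoxynucleotide genes, Rrm2 was at 148, 130 and 147 at day 6, then 122, 122 and 143 at day 8 and 299, 219 and 270 at day 10. Rrm2 was lower on day 6 than on day 3 and higher on day 10 than on day 8, without overlap in either step. From day 8 to day 10 its log2 fold change was 0.99 ± 0.20 (SE, adjusted p = 0.00424), and it was the 1 gene of the 48 still called without Cont day 8 replicate 2. The day 6 step passed with the block at -0.63 ± 0.17 (adjusted p = 0.0128), as did Rrm1, the large subunit of the same enzyme, at -0.66 ± 0.18 (adjusted p = 0.0132). Tk1 was at 16.6, 9.57 and 19.3 at day 6, then 32.8, 20 and 25.7 at day 8 and 80.2, 74.1 and 87.6 at day 10. Tk1 was above the day before on day 8 and again on day 10, without overlap. The day 8 to day 10 log2 fold change was 1.6 ± 0.33 (SE, adjusted p = 0.00605). Dut, which clears dUTP, was at 41.9, 33.8 and 43.5 on day 8 and 74.1, 76.5 and 98.9 on day 10. Day 10 was higher without overlap, at a log2 fold change of 1.03 ± 0.27 (SE, adjusted p = 0.0409).

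Leaving out 1 library gave 1 to 4 genes called from day 8 to day 10. Prim1 was not called without Cont day 8 replicate 2 (log2 fold change 1.21, adjusted p = 0.0544), with adjusted p from 0.000287 to 0.0544 over 13 alternative settings. Tk1 was not called without Cont day 8 replicate 2 (log2 fold change 1.47, adjusted p = 0.0577), with adjusted p from 6.28e-05 to 0.0577 over 13 alternative settings. Tk1 and Dut act on the thymidine and dUTP pools. Dut was not called without Cont day 8 replicate 1, Cont day 8 replicate 2, Cont day 8 replicate 3, Cont day 10 replicate 2 or Cont day 10 replicate 3 (log2 fold change 1.07, 0.94, 1.11, 1.10 and 0.89, adjusted p = 0.131, 0.199, 0.0717, 0.071 and 0.253), nor with 1 well per replicate (log2 fold change 0.97), with adjusted p from 0.006 to 0.253 over 13 alternative settings. The number called was 3 without Cont day 8 replicate 1, Cont day 10 replicate 2 or Cont day 10 replicate 3, and 1 without Cont day 8 replicate 2. Tyms was at 143, 111 and 113 at day 6, then 105, 80.2 and 89.5 at day 8 and 115, 84.8 and 106 at day 10. Tyms was lower on day 8 than on day 6 in every library and overlapped between days 8 and 10.

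Among the cyclin E genes, Ccne1 fell early. Ccne1 was at 15.2, 1.91 and 3.51 at day 6, then 5.66, 9.5 and 9.55 at day 8 and 19.8, 5.97 and 24.5 at day 10. Its day 6 libraries were below all day 3 libraries, at a log2 fold change of -2.04 ± 0.46 (SE, adjusted p = 0.00484). Ccne1 was not called without Cont day 3 replicate 2 or Cont day 6 replicate 2 (log2 fold change -1.69 and -1.64, adjusted p = 0.0547 and 0.0535), with adjusted p from 0.000142 to 0.0547 over 13 alternative settings. With the block its log2 fold change was -2.15 ± 0.53 (adjusted p = 0.00649). Ccne2 was at 93.5, 111 and 91.3 at day 6, then 82.6, 72.8 and 78.7 at day 8 and 87.7, 56.2 and 76.3 at day 10. Ccne2 was lower on day 6 than on day 3 and lower again on day 8, without overlap, and the day 6 step passed with the block at -0.66 ± 0.19 (adjusted p = 0.0211). Chaf1a was at 6.92, 18.2 and 20.2 at day 6, then 9.06, 4.22 and 16.7 at day 8 and 12.3, 17.9 and 27.3 at day 10. Slbp was at 49.8, 52.7 and 50.9 at day 6, then 56.6, 49.6 and 66.2 at day 8 and 56.8, 55 and 66.9 at day 10. Chaf1a and Slbp overlapped in every Cont day step. Chaf1b was called lower from day 3 to day 6 with the block, at -1.04 ± 0.32 (adjusted p = 0.0358).

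The step from Cont day 10 to ESC asks how these genes differed between the sorted day 10 cells and the pluripotent line. Genes of every role in the list rose, and Ccne2 was lower in ESC. In edgeR 41 of the 48 genes were called higher, where 21.5% of all genes tested were, and 1 lower, where 30.3% were. The median log2 fold change was 1.44 against -0.15, and 47 of the 48 were positive. Without ESC replicate 2, 43 were called higher, where 20.9% of 11370 genes tested were, and 0 lower, where 28.1% were, with a median of 1.57 against -0.15. The calls that differed without it were Rfc1, Prim2 and Chaf1a, which were gained, and Ccne2 and Slbp, which were lost. DESeq2 with all 3 ESC libraries called 42 higher and 1 lower. Scaled by total counts alone, 1367 of all genes tested were called higher and 4341 lower, against 2363 and 3326. The 48 genes then had 35 higher and 1 lower.

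All 4 licensing genes rose, with a median of 1.68 (1.56 without ESC replicate 2). Cdc6 had 47.5, 63.2 and 108 in ESC. Cdt1 had 107, 258 and 116 in ESC. The ESC libraries of both were above all Cont day 10 libraries, replicate 2 included. Orc6 had 290, 294 and 265 in Cont day 10 and 562, 334 and 474 in ESC. Its ESC libraries were higher without overlap, at a log2 fold change of 0.71 ± 0.22 (SE, adjusted p = 0.00713), and 0.95 ± 0.22 (adjusted p = 0.000293) without ESC replicate 2. Orc6 was not called without ESC replicate 1 (log2 fold change 0.53, adjusted p = 0.0653), nor with scaling by total counts alone or a fit of the 2 groups alone (log2 fold change 0.29 and 0.65), with adjusted p from 0.000293 to 0.232 over 13 alternative settings. All 6 MCM subunits rose, and all 6 were again called higher without ESC replicate 2, with a median of 2.11 and 2.11. Mcm2 had 218, 381 and 243 in ESC. Mcm3 had 260, 222 and 291 in ESC. These subunits were above every Cont day 10 library in every ESC library. Mcm4 had 269, 233 and 364 in ESC. Mcm5 had 271, 155 and 228 in ESC. They too did not overlap Cont day 10, though Mcm5 was lowest in ESC replicate 2. Mcm6 had 249, 294 and 329 in ESC. Mcm7 had 231, 312 and 278 in ESC. Again every ESC library was above every Cont day 10 library. Of the 6 helicase activators 5 were called higher, all but Gins3, with a median of 1.27 (1.57 and the same 5 without ESC replicate 2).

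Of the 7 clamp and loader genes 6 were called higher, all but Rfc1, which was called without ESC replicate 2. Pcna had 1420, 638 and 1350 in ESC. Each ESC library was above Cont day 10, though replicate 2 lay just over the highest of them. Rfc3, a loader subunit, was not called without ESC replicate 1 (log2 fold change 0.49, adjusted p = 0.116). Dscc1, a subunit of an alternative clamp loader, had 1.23, 2.39 and 3.77 in Cont day 10 and 31.1, 28.9 and 15.4 in ESC. ESC was higher without overlap, at a log2 fold change of 3.25 ± 0.80 (SE, adjusted p = 0.000744), and 3.23 ± 0.86 (adjusted p = 0.00178) without ESC replicate 2. Of the 8 polymerase and primase genes 6 were called higher, all but Prim2 and Pold2, and Prim2 was called without ESC replicate 2. Pold1, the catalytic subunit of polymerase delta, had 9.88, 5.97 and 6.6 in Cont day 10 and 52.1, 28.9 and 57.9 in ESC. ESC was higher without overlap, at a log2 fold change of 2.65 ± 0.56 (SE, adjusted p = 0.000131), and 2.93 ± 0.59 (adjusted p = 5.21e-05) without ESC replicate 2. All 3 RPA subunits, both lagging-strand genes and both fork factors were called higher, with and without ESC replicate 2.

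Of the 5 deoxynucleotide genes 4 were called higher, all but Tk1, and the same 4 without ESC replicate 2. Rrm2 had 417, 329 and 499 in ESC. It was above Cont day 10 in every ESC library, at a log2 fold change of 0.67 ± 0.20 (SE, adjusted p = 0.00389), and 0.86 ± 0.19 (adjusted p = 0.000195) without ESC replicate 2. Rrm2 was not called with scaling by total counts alone or a fit of the 2 groups alone (log2 fold change 0.27 and 0.62), with adjusted p from 0.000195 to 0.289 over 13 alternative settings. Tyms had 366, 188 and 378 in ESC, without overlap. Tk1 had 95.9, 34.3 and 113 in ESC, with replicate 2 below and the other ESC libraries above all Cont day 10 libraries. The cyclin E genes went opposite ways. Ccne1 had 106, 150 and 122 in ESC. Its ESC libraries were above all Cont day 10 libraries, at a log2 fold change of 2.87 ± 0.41 (SE, adjusted p = 1.41e-07), and 2.80 ± 0.42 (adjusted p = 3.88e-07) without ESC replicate 2. Ccne2 had 41.1, 19.9 and 57.9 in ESC. ESC was lower with an overlap of a library on each side, at a log2 fold change of -0.84 ± 0.28 (SE, adjusted p = 0.0114). Ccne2 was not called without Cont day 10 replicate 1 or ESC replicate 2 (log2 fold change -0.65 and -0.52, adjusted p = 0.0761 and 0.11), nor with 1 well per replicate or a fit of the 2 groups alone (log2 fold change -0.62 and -0.90), with adjusted p from 0.000314 to 0.146 over 13 alternative settings. Chaf1a had 31.1, 23.5 and 60.4 in ESC and overlapped Cont day 10, though it was called without ESC replicate 2. Slbp had 82.2, 164 and 69.4 in ESC and lay above Cont day 10, but was not called without Cont day 10 replicate 2 or ESC replicate 2 (log2 fold change 0.75 and 0.42, adjusted p = 0.0654 and 0.243). Chaf1b was not called without ESC replicate 1 (log2 fold change 0.92, adjusted p = 0.0686).

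The steps from MEF to Cont day 3 and from Cont day 10 to ESC share no libraries. Of the 22 genes called higher in the earlier step, 17 were also among the 41 called higher in the later one. That is 77.3% of the 22, where 85.4% of all 48 were called in the later step, so the earlier call did not go with a larger share. Of all genes called higher in the earlier step, 24.2% were called higher in the later one. The 5 others were Gins3, Rfc1, Prim2, Pold2 and Ccne2, and Tk1 and Chaf1a were in neither list. Without ESC replicate 2, 19 of the 22 were among the 43 called higher in the later step, or 86.4%, where 89.6% of all 48 and 25.9% of all genes called in the earlier step were. The 3 others were Gins3, Pold2 and Ccne2, and Tk1 and Slbp were in neither list. From MEF to ESC, which shares its libraries with both steps, 44 of the 48 genes were called higher, where 29.1% of all genes tested were, and 1 lower, where 30.5% were. The median was 2.23 against 0.00. Without ESC replicate 2, 47 were called higher, where 27.3% of all genes were, and 1 lower, where 29.2% were, with a median of 2.38 against -0.04. Gins2, Prim2 and Tk1 were called in that set and not with all 3 ESC libraries. Cdt1 did not overlap between MEF and ESC and had a log2 fold change of 4.61 ± 0.37 (SE, adjusted p = 3.15e-14), and 4.15 ± 0.35 (adjusted p = 4.64e-14) without ESC replicate 2. Mcm10, at 82.2, 88.5 and 97.7 in ESC, was above MEF without overlap. Its log2 fold change was 3.87 ± 0.40 (SE, adjusted p = 3.26e-11), and 3.90 ± 0.41 (adjusted p = 3.22e-11) without replicate 2. Orc1, a subunit of the origin recognition complex, had 4.44, 15.2 and 6.05 in MEF and 121, 99.3 and 127 in ESC, without overlap. Its log2 fold change was 3.86 ± 0.37 (SE, adjusted p = 3.88e-12), and 3.98 ± 0.37 (adjusted p = 9.22e-13) without replicate 2.

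With all 3 ESC libraries, the smallest changes that passed from MEF to ESC were in deoxynucleotide supply and cyclin E. Without ESC replicate 2 the smallest was that of Gins2, a helicase activator, at 0.63 ± 0.26 (SE, adjusted p = 0.0342). Rrm2 was higher in every ESC library than in any MEF library, at a log2 fold change of 0.86 ± 0.20 (SE, adjusted p = 0.000234), and 1.01 ± 0.19 (adjusted p = 1.29e-05) without ESC replicate 2. Rrm1 had 139, 129 and 184 in MEF and 253, 154 and 225 in ESC. ESC replicate 2 lay within the MEF range and the other 2 ESC libraries lay above it. The log2 fold change of Rrm1 was 0.59 ± 0.20 (SE, adjusted p = 0.0107), and 0.78 ± 0.19 (adjusted p = 0.000651) without ESC replicate 2. Rrm1 was not called without MEF replicate 1, MEF replicate 2 or ESC replicate 1 (log2 fold change 0.50, 0.46 and 0.39, adjusted p = 0.0548, 0.0764 and 0.129), nor with scaling by total counts alone, 1 well per replicate or a fit of the 2 groups alone (log2 fold change 0.31, 0.50 and 0.49), with adjusted p from 0.000651 to 0.236 over 13 alternative settings. Ccne2 was lower in ESC with an overlap of a library on each side. Its log2 fold change was -0.93 ± 0.28 (SE, adjusted p = 0.00389), and -0.65 ± 0.27 (adjusted p = 0.0372) without ESC replicate 2. Ccne2 was not called without MEF replicate 2 (log2 fold change -0.65, adjusted p = 0.0591), with adjusted p from 0.000334 to 0.0591 over 13 alternative settings. Chaf1a was not called without MEF replicate 2 or ESC replicate 3 (log2 fold change 0.67 and 0.67, adjusted p = 0.21 and 0.262), nor Gins3 without ESC replicate 1 (log2 fold change 1.42, adjusted p = 0.0625). On the log2 scale from the MEF mean to the ESC mean, the 44 genes called higher stood at a median of 37.3% of the way in Cont day 3, 28.8% in day 6, 24.7% in day 8 and 32.5% in day 10. Without ESC replicate 2 these medians were 34.2%, 28.8%, 24.7% and 28.7%. In +Sm3CA the medians were 35.7% at day 3, then 30.8% at day 6, 33.4% at day 8 and 49.3% at day 10, or 32.2%, 29.9%, 31.1% and 43.7% without ESC replicate 2. The 44 genes were chosen by the same MEF and ESC values that set this scale, and they did not move as 1. With all 3 ESC libraries, 6, 9, 12 and 5 of the 44 were below 0 in Cont on days 3, 6, 8 and 10. In +Sm3CA 4, 8, 7 and 4 were. The difference between the series in this measure was not tested.

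The steps between +Sm3CA days follow the same days with active Smad3. From day 3 to day 6 Orc1 and Tipin rose and Tyms, Fen1, Gins2, Chaf1b and Ccne1 fell, from day 6 to day 8 Lig1 and Rfc1 fell, and from day 8 to day 10 Dut and Tk1 rose. From day 3 to day 6, 2 of the 48 genes were called higher, where 6.52% of all genes tested were, and 5 lower, where 5.87% were. The median was -0.18 against 0.04. The replicate block called 8, where 18.4% of all genes were called, adding Mcm4 at -0.71 ± 0.25 (adjusted p = 0.0457). With DESeq2 size factors 674 of all genes tested were called higher and 688 lower, against 716 and 645, and the 48 genes had 2 higher and 5 lower. Of the 6 epithelial markers, 5 were called higher (Epcam, Cdh1, Krt8, Cldn4 and Cldn7), and their summed level, led by Krt8, was 186, 222 and 282 on day 3 and 798, 803 and 813 on day 6. Of the 10 fibroblast markers, 2 were called lower (Col1a1 and Thy1), and their summed level, led by Dcn, was 1240, 1420 and 1620 on day 3 and 879, 992 and 1100 on day 6, with Lum at 0 on day 3. Of the 5 keratinocyte markers, 2 were called lower (Krt14 and Krt6a), and their summed level, led by Krt6a and then Krt14, was 490, 949 and 1080 on day 3 and 332, 372 and 401 on day 6. Of the 10 pluripotent markers, 1 was called higher (Zfp42), and their summed level, led by Zfp42, was 30.3, 34.3 and 34.5 on day 3 and 66, 87.2 and 120 on day 6, with Nanog and Tdgf1 at 0 on day 3. The neural marker Tubb3 was called lower, at a log2 fold change of -0.89 ± 0.28 (SE, adjusted p = 0.0287). The group mean of another neural marker, Stmn2, went the other way, from 4400 on day 3 to 5660 on day 6. The part of these cells in the changes of the 7 replication genes was not tested. From day 6 to day 8, edgeR called 0 higher, where 1.33% of all genes tested were, and 2 lower, where 1.52% were. In edgeR 10 genes had an unadjusted p under 0.05, and DESeq2 called 0 higher and 5 lower. The median was 0.00 against 0.04. With the block 7 were called, 2 of them higher (Pcna and Tk1), where 7.19% of all genes were called. Scaled by total counts alone, Pcna was called higher and Lig1 was not called, and 226 of all genes tested were called higher and 103 lower, against 146 and 167. Of the 10 fibroblast markers, 4 were called higher (Col1a2, Col3a1, Lum and Postn), and their summed level, led by Dcn, was 879, 992 and 1100 on day 6 and 1560, 1820 and 2060 on day 8. The neural marker Stmn2 was called lower, at a log2 fold change of -1.02 ± 0.26 (SE, adjusted p = 0.025). Of the 10 pluripotent markers, 1 was called higher (Tfcp2l1), and their summed level, led by Zfp42, was 66, 87.2 and 120 on day 6 and 104, 115 and 124 on day 8. Their part in the changes of Lig1 and Rfc1 was not tested. From day 8 to day 10, edgeR called 2 higher, where 1.27% of all genes tested were, and 0 lower, where 0.783% were. In edgeR 12 genes had an unadjusted p under 0.05, and DESeq2 called 2 higher and 0 lower. The median was 0.30 against -0.01. The block called 4, where 5.17% of all genes were called, adding Lig1 at 0.73 ± 0.20 (adjusted p = 0.0293) and Tipin at 0.62 ± 0.17 (adjusted p = 0.0326). Of the 10 pluripotent markers, 6 were called higher (Zfp42, Dppa5a, Dppa4, Tdgf1, Tfcp2l1 and Fbxo15), and their summed level, led by Zfp42 and then Dppa5a, was 104, 115 and 124 on day 8 and 1050, 1190 and 2320 on day 10. Of the 10 fibroblast markers, 1 was called lower (Fbn1), and their summed level, led by Dcn, was 1560, 1820 and 2060 on day 8 and 1270, 1520 and 1620 on day 10. The neural marker Mbp was called higher, at a log2 fold change of 3.48 ± 0.69 (SE, adjusted p = 0.00229). The neural markers Stmn2 and Tubb3 were not called, at -0.10 ± 0.26 and -0.37 ± 0.29 (SE, adjusted p = 0.898 and 0.585). Their part in the changes of Dut and Tk1 was not tested.

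Among the licensing genes, Orc1 was at 13, 20.4 and 20.9 on day 3 of +Sm3CA and 43.6, 26.4 and 47.2 on day 6. Day 6 was higher without overlap, at a log2 fold change of 1.12 ± 0.34 (SE, adjusted p = 0.0243). Orc1 was not called without +Sm3CA day 3 replicate 1, +Sm3CA day 3 replicate 2, +Sm3CA day 6 replicate 1 or +Sm3CA day 6 replicate 3 (log2 fold change 0.93, 1.24, 1.01 and 1.00, adjusted p = 0.113, 0.0519, 0.112 and 0.0906), nor with 1 well per replicate (log2 fold change 1.01), with adjusted p from 0.0125 to 0.128 over 13 alternative settings. Cdc6 was at 16.1, 9.27 and 13.6 at day 3, then 17.1, 8.54 and 18.9 at day 6, 22.9, 34.9 and 12.1 at day 8 and 29.4, 29.5 and 40.4 at day 10. Cdt1 was at 29.2, 18.5 and 16.7 at day 3, then 16.2, 36.5 and 28.3 at day 6, 33.4, 30.6 and 29.1 at day 8 and 57.5, 42.6 and 71.6 at day 10. Cdc6 overlapped in every step, and Cdt1 on day 10 was above day 8 without overlap. In the MCM ring, Mcm2 was at 48.4, 20.4 and 44.9 at day 3, then 43.6, 35.7 and 55.3 at day 6, 36.5, 53.3 and 30.7 at day 8 and 57.5, 63.4 and 65.1 at day 10. Mcm3 was at 49.9, 44.5 and 54.3 at day 3, then 25.6, 27.2 and 55.3 at day 6, 27.8, 35.5 and 45.2 at day 8 and 64.5, 47 and 92.5 at day 10. Mcm4 was at 62.2, 49.2 and 99.1 at day 3, then 42.7, 45.8 and 35.1 at day 6, 57.5, 79 and 54.1 at day 8 and 65.9, 118 and 121 at day 10. Mcm2 and Mcm3 were higher on day 10 than on day 8 in every library, and Mcm4 was lower on day 6 than on day 3 and higher again on day 8, without overlap. Mcm5 was at 111, 62.1 and 87.6 at day 3, then 94.9, 77.6 and 51.3 at day 6, 53.8, 57.6 and 99.3 at day 8 and 71.5, 80.8 and 100 at day 10. Mcm6 was at 127, 122 and 86.6 at day 3, then 139, 124 and 131 at day 6, 119, 130 and 125 at day 8 and 102, 86.3 and 143 at day 10. Mcm7 was at 69.1, 64 and 57.4 at day 3, then 55.6, 56.7 and 37.8 at day 6, 37.7, 63.7 and 50.9 at day 8 and 75.7, 63.4 and 40.4 at day 10. Mcm5 and Mcm6 overlapped in each step, and Mcm7 was lower on day 6 than on day 3 without overlap.

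Gins2, a subunit of the GINS complex, was at 72.9, 74.2 and 79.3 on day 3 and 38.5, 38 and 47.2 on day 6. It was lower on day 6 without overlap, at a log2 fold change of -0.86 ± 0.28 (SE, adjusted p = 0.0341), and leaving out any of the 6 libraries ended the call: it was not called without +Sm3CA day 3 replicate 1, +Sm3CA day 3 replicate 2, +Sm3CA day 3 replicate 3, +Sm3CA day 6 replicate 1, +Sm3CA day 6 replicate 2 or +Sm3CA day 6 replicate 3 (log2 fold change -0.87, -0.86, -0.82, -0.82, -0.80 and -0.93, adjusted p = 0.0602, 0.0873, 0.0952, 0.123, 0.112 and 0.059), with adjusted p from 0.00871 to 0.123 over 13 alternative settings. Pcna was at 461, 554 and 498 at day 3, then 345, 503 and 358 at day 6, 656, 694 and 618 at day 8 and 454, 709 and 553 at day 10. Pcna on day 8 was above every day 6 library and overlapped day 10. Its day 6 to day 8 step passed with the block, at 0.71 ± 0.16 (adjusted p = 0.00402). Rfc1, the large loader subunit, was at 289, 270 and 379 on day 6 and 156, 108 and 224 on day 8. It was lower on day 8 without overlap, at a log2 fold change of -0.95 ± 0.22 (SE, adjusted p = 0.014). Rfc1 was not called without +Sm3CA day 6 replicate 3, +Sm3CA day 8 replicate 1 or +Sm3CA day 8 replicate 2 (log2 fold change -0.81, -0.92 and -0.73, adjusted p = 0.134, 0.0612 and 0.171), nor with 1 well per replicate (log2 fold change -0.67), with adjusted p from 0.000963 to 0.171 over 13 alternative settings. Fen1 was at 70.6, 75.1 and 53.2 on day 3 and 35.1, 34.2 and 40.5 on day 6. Day 6 was lower without overlap, at a log2 fold change of -0.85 ± 0.27 (SE, adjusted p = 0.0293). Fen1 was not called without +Sm3CA day 3 replicate 1, +Sm3CA day 3 replicate 2, +Sm3CA day 6 replicate 1, +Sm3CA day 6 replicate 2 or +Sm3CA day 6 replicate 3 (log2 fold change -0.79, -0.74, -0.83, -0.80 and -0.90, adjusted p = 0.0831, 0.137, 0.107, 0.101 and 0.0607).

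Lig1 was at 118, 116 and 174 on day 6 and 61.8, 57 and 108 on day 8. It was lower on day 8 without overlap, at a log2 fold change of -0.85 ± 0.23 (SE, adjusted p = 0.0331). Lig1 was not called without +Sm3CA day 6 replicate 1, +Sm3CA day 6 replicate 3, +Sm3CA day 8 replicate 1 or +Sm3CA day 8 replicate 2 (log2 fold change -0.93, -0.66, -0.72 and -0.68, adjusted p = 0.0583, 0.262, 0.174 and 0.253), nor with scaling by total counts alone or a fit of the 2 groups alone (log2 fold change -0.76 and -0.85), with adjusted p from 0.00292 to 0.262 over 13 alternative settings. Among the genes that the block added in that step, Orc6 was at -0.68 ± 0.20 (adjusted p = 0.0277), Pola1 at -0.97 ± 0.26 (adjusted p = 0.0181), Tipin at -0.64 ± 0.17 (adjusted p = 0.0186) and Tk1 at 1.06 ± 0.29 (adjusted p = 0.021). Without +Sm3CA day 6 replicate 3, +Sm3CA day 8 replicate 1 or +Sm3CA day 8 replicate 2, edgeR called 0 of the 48 genes from day 6 to day 8, with 8, 8 and 9 at an unadjusted p under 0.05, and DESeq2 was not run on these sets. The count was 1 without +Sm3CA day 6 replicate 1 and 4 without +Sm3CA day 8 replicate 3. Tipin, which steadies the fork, was at 168, 158 and 161 on day 3 and 274, 228 and 344 on day 6. Day 6 was higher without overlap, at a log2 fold change of 0.81 ± 0.21 (SE, adjusted p = 0.00901). Tipin was not called without +Sm3CA day 6 replicate 3 (log2 fold change 0.67, adjusted p = 0.0658), nor with 1 well per replicate (log2 fold change 0.48), with adjusted p from 0.00135 to 0.199 over 13 alternative settings.

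In deoxynucleotide supply, Rrm2 was at 274, 193 and 240 at day 3, then 194, 164 and 174 at day 6, 193, 234 and 234 at day 8 and 306, 286 and 270 at day 10. Rrm2 was higher on day 10 than on day 8 in every library. Tyms was at 136, 249 and 195 at day 3, then 75.2, 120 and 127 at day 6, 104, 118 and 153 at day 8 and 104, 156 and 115 at day 10. Tyms was lower on day 6 than on day 3 without overlap, at a log2 fold change of -0.83 ± 0.25 (SE, adjusted p = 0.0239). Tyms was not called without +Sm3CA day 3 replicate 2, +Sm3CA day 3 replicate 3 or +Sm3CA day 6 replicate 1 (log2 fold change -0.59, -0.82 and -0.63, adjusted p = 0.211, 0.0622 and 0.185), with adjusted p from 0.00154 to 0.211 over 13 alternative settings. Tk1 was at 22.3, 32.5 and 36.5 at day 3, then 11.1, 25.6 and 25.6 at day 6, 42.6, 36.8 and 47.6 at day 8 and 98.1, 122 and 71.6 at day 10. Tk1 was above the day before on day 8 and on day 10, without overlap. From day 8 to day 10 its log2 fold change was 1.20 ± 0.31 (SE, adjusted p = 0.0256), and it was not called without +Sm3CA day 8 replicate 1, +Sm3CA day 8 replicate 2, +Sm3CA day 10 replicate 1 or +Sm3CA day 10 replicate 2 (log2 fold change 1.22, 1.12, 1.21 and 1.00, adjusted p = 0.0751, 0.136, 0.0663 and 0.179), with adjusted p from 0.00414 to 0.179 over 13 alternative settings. Without each of these 4 libraries Dut was the 1 gene called. Dut was at 39.6, 66.8 and 67 on day 8 and 126, 140 and 154 on day 10. Day 10 was higher without overlap, at a log2 fold change of 1.28 ± 0.25 (SE, adjusted p = 0.00229), and Dut was called without each library in turn. Without +Sm3CA day 8 replicate 3 the count of genes called was 4.

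Ccne1 fell in +Sm3CA too. Ccne1 was at 26.9, 19.5 and 26.1 at day 3, then 4.27, 4.66 and 9.45 at day 6, 4.94, 11.6 and 4.04 at day 8 and 7.01, 13.1 and 16.9 at day 10. Ccne1 on day 6 was below day 3 in every library, at a log2 fold change of -2.03 ± 0.50 (SE, adjusted p = 0.00533), and was called without each library in turn. Ccne2 was at 124, 109 and 134 at day 3, then 101, 97.8 and 134 at day 6, 112, 125 and 109 at day 8 and 92.5, 80.8 and 82 at day 10. Ccne2 overlapped until day 8 and was lower on day 10 without overlap. Chaf1a was at 20.7, 22.3 and 26.1 at day 3, then 11.1, 19.4 and 21.6 at day 6, 24.1, 17.8 and 20.2 at day 8 and 26.6, 20.8 and 26 at day 10. Slbp was at 61.4, 23.2 and 48 at day 3, then 60.7, 53.6 and 66.1 at day 6, 53.2, 28.2 and 53.3 at day 8 and 56.1, 78.6 and 91.1 at day 10. Chaf1a overlapped in each step, and Slbp on day 8 was below days 6 and 10. Chaf1b, the chaperone subunit, was at 46.8, 34.3 and 31.3 on day 3 and 16.2, 12.4 and 12.1 on day 6. Day 6 was lower without overlap, at a log2 fold change of -1.44 ± 0.39 (SE, adjusted p = 0.0109). Chaf1b was not called without +Sm3CA day 3 replicate 1, +Sm3CA day 6 replicate 2 or +Sm3CA day 6 replicate 3 (log2 fold change -1.22, -1.35 and -1.35, adjusted p = 0.0627, 0.0523 and 0.0511), with adjusted p from 0.00158 to 0.0627 over 13 alternative settings. From day 3 to day 6 the count of genes called was 3 without +Sm3CA day 3 replicate 1 or day 6 replicate 1, 4 without day 3 replicate 2 or day 6 replicate 2, and 2 without day 6 replicate 3.

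The comparisons of +Sm3CA with Cont ask whether active Smad3 changed these genes on a given day. No gene passed on day 3 or day 6, Prim1, Pcna and Rrm2 were higher in +Sm3CA on day 8, and Gins1 and Dut on day 10. These comparisons were fitted on the 24 reprogramming libraries, where 47 of the 48 genes were tested among 10237 and Dscc1 was under the filter on low counts. On day 3 edgeR called 0 higher and 0 lower, where 0.0195% and 0% of all genes tested were, with 4 of the 47 at an unadjusted p under 0.05 and 0 called by DESeq2. The median was 0.09 against 0.00. On day 6 edgeR called 0 higher and 0 lower, where 0.00977% and 0% of all genes were, with 4 at an unadjusted p under 0.05 and 0 called by DESeq2. The median was 0.17 against 0.01.

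On day 8 edgeR called 3 of the 47 genes higher, where 0.381% of all genes tested were, and 0 lower, where 0.654% were. In edgeR 14 had an unadjusted p under 0.05, and DESeq2 called 3 higher and 0 lower. The median was 0.25 against 0.00. Scaled by total counts alone, 87 of all genes tested were called higher and 59 lower, against 39 and 67, and the 47 genes again had 3 higher and 0 lower. This comparison shares the Cont day 8 libraries with the steps between Cont days. Prim1 was at 136, 77.8 and 88 in +Sm3CA and 56.6, 41.2 and 40 in Cont on day 8. +Sm3CA was higher without overlap, at a log2 fold change of 1.16 ± 0.21 (SE, adjusted p = 0.00287), and Prim1 was called without each library in turn. It was not called with 1 well per replicate (log2 fold change 0.96), with adjusted p from 0.000133 to 0.0934 over 13 alternative settings. Pcna was higher in every +Sm3CA day 8 library than in any Cont day 8 library, at a log2 fold change of 0.83 ± 0.17 (SE, adjusted p = 0.00958). Pcna was not called without Cont day 8 replicate 2 or +Sm3CA day 8 replicate 2 (log2 fold change 0.76 and 0.78, adjusted p = 0.0667 and 0.0523), nor with all 30 libraries in the fit (log2 fold change 0.82), with adjusted p from 0.000712 to 0.131 over 13 alternative settings. Rrm2 was likewise higher without overlap, at a log2 fold change of 0.78 ± 0.17 (SE, adjusted p = 0.0131). Rrm2 was not called without Cont day 8 replicate 1, Cont day 8 replicate 2 or +Sm3CA day 8 replicate 2 (log2 fold change 0.74, 0.74 and 0.73, adjusted p = 0.0512, 0.0667 and 0.0746), nor with all 30 libraries in the fit (log2 fold change 0.77), with adjusted p from 0.0017 to 0.0756 over 13 alternative settings. The count was 1 without Cont day 8 replicate 2 or +Sm3CA day 8 replicate 2, and 5 without +Sm3CA day 8 replicate 3, 1 of them lower.

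On day 10 edgeR called 2 of the 47 genes higher, where 0.83% of all genes tested were, and 0 lower, where 2.74% were. In edgeR 5 had an unadjusted p under 0.05, and DESeq2 called 2 higher and 0 lower. The median was 0.23 against -0.01, and 42 of the 47 were positive. Gins1, a subunit of the GINS complex, was at 53.3, 72.1 and 59.9 in +Sm3CA and 24.7, 25.1 and 31.1 in Cont on day 10. +Sm3CA was higher without overlap, at a log2 fold change of 1.21 ± 0.28 (SE, adjusted p = 0.00827). Gins1 was not called without Cont day 10 replicate 2 or +Sm3CA day 10 replicate 2 (log2 fold change 1.16 and 1.09, adjusted p = 0.0509 and 0.0646), with adjusted p from 0.00324 to 0.0646 over 13 alternative settings. Dut was higher in every +Sm3CA library than in any Cont library of that day, at a log2 fold change of 0.76 ± 0.22 (SE, adjusted p = 0.047). Dut was not called without Cont day 10 replicate 1, Cont day 10 replicate 2, +Sm3CA day 10 replicate 1, +Sm3CA day 10 replicate 2 or +Sm3CA day 10 replicate 3 (log2 fold change 0.70, 0.71, 0.85, 0.78 and 0.70, adjusted p = 0.113, 0.175, 0.0586, 0.114 and 0.167), nor with scaling by total counts alone, 1 well per replicate or all 30 libraries in the fit (log2 fold change 0.73, 0.77 and 0.78), with adjusted p from 0.0336 to 0.175 over 13 alternative settings. Without Cont day 10 replicate 2 or +Sm3CA day 10 replicate 2, edgeR called 0 of the 47 genes, with 4 and 6 at an unadjusted p under 0.05, and DESeq2 was not run on these sets. The number called was 1 without Cont day 10 replicate 1, +Sm3CA day 10 replicate 1 or +Sm3CA day 10 replicate 3. The gap between the 2 series at day 10 was also tested against their gap at day 3. In this test edgeR called 0 higher and 0 lower, where 0.107% and 0.899% of all genes tested were, with 6 of the 47 at an unadjusted p under 0.05 and 0 called by DESeq2. The median of this difference was 0.16 against -0.01.

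**Figure D3:**
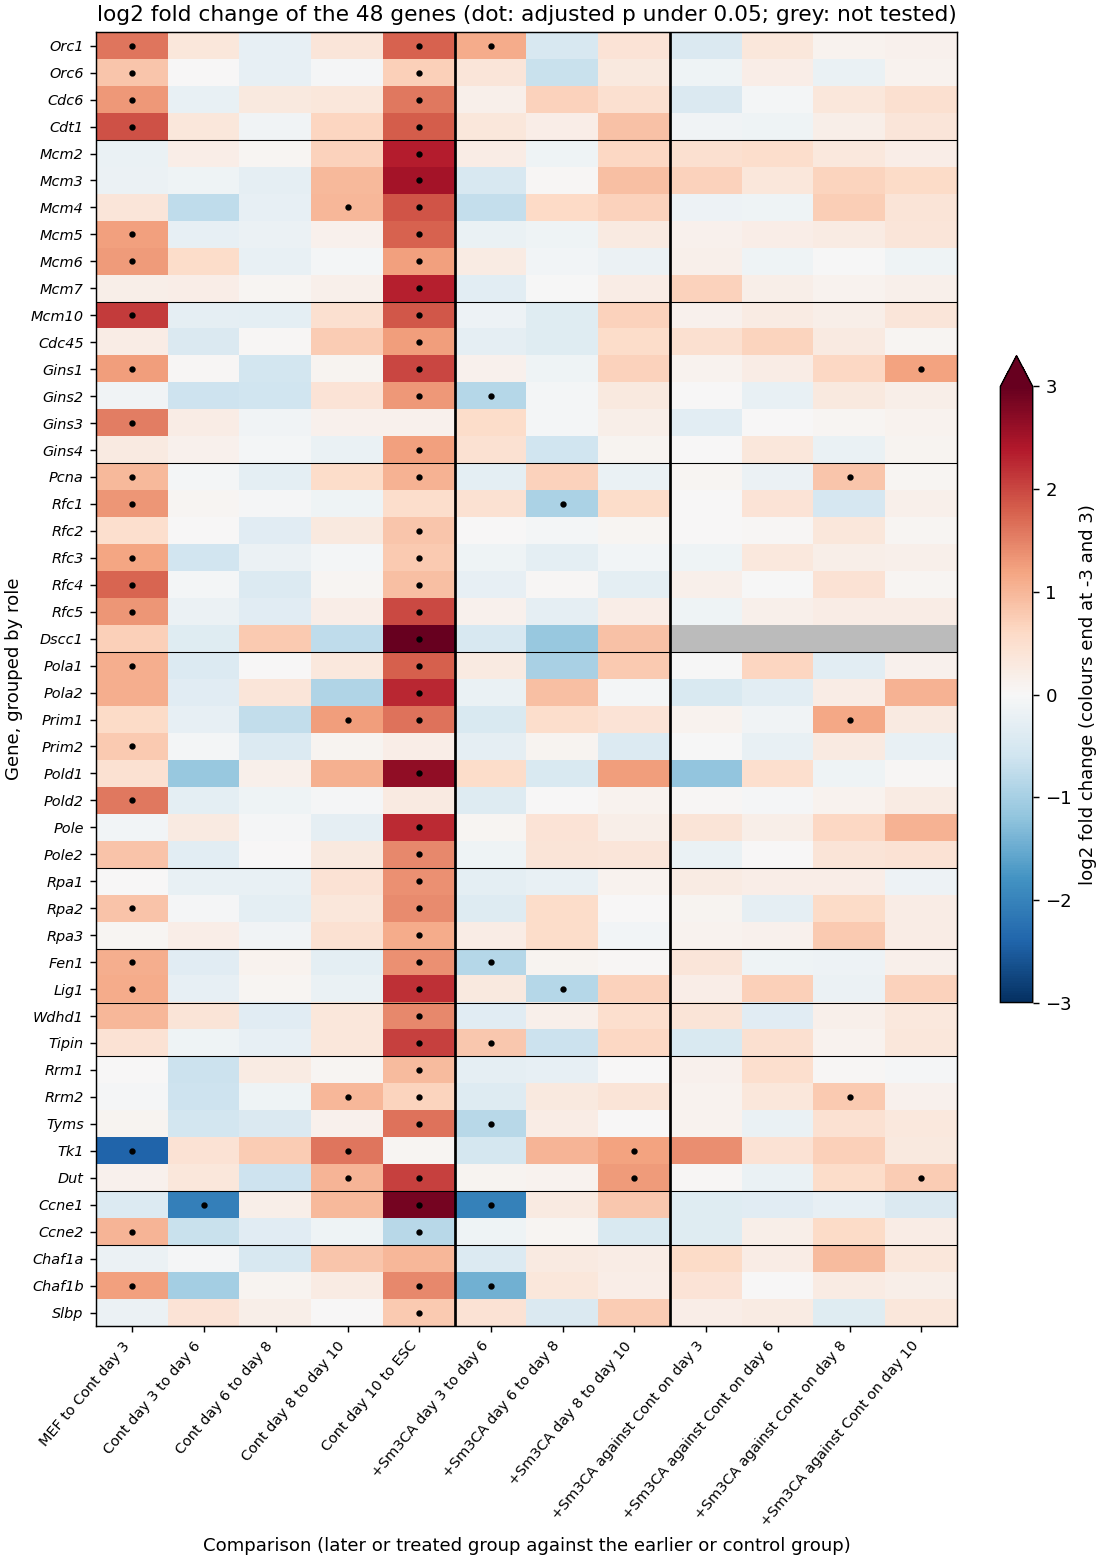
Log2 fold change (colour, ending at -3 and 3) of the 48 replication genes (y axis, by role) in 12 comparisons (x axis), with a dot where the edgeR adjusted p was under 0.05 and grey where a gene was not tested. Cont day 10 to ESC holds 42 dots and MEF to Cont day 3 holds 23, while +Sm3CA against Cont holds 0 on days 3 and 6, 3 on day 8 and 2 on day 10.

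Other genes of replication and the cell cycle were counted in the steps from MEF to Cont day 3 and from Cont day 10 to ESC. As given above, 22.6% of all genes tested were called higher and 20.9% lower in the earlier step, and 21.5% and 30.3% in the later one. Of 29 other replication genes, 27 were tested. From MEF to Cont day 3, 10 of them were called higher, with a median of 0.40, running from -0.84 for the polymerase delta subunit Pold4 to 2.57 for Ticrr, which helps to fire origins. From Cont day 10 to ESC 17 were called higher and 1 (Pold4) lower, with a median of 1.04, and 18 and 1 of 28 tested without ESC replicate 2. E2F and pocket proteins control the transcription of many replication genes. Of their 13 genes, 2 (Tfdp2 and Rbl2) were called lower from MEF to Cont day 3, with a median of -0.05. From Cont day 10 to ESC 5 were called higher (E2f1, E2f4, E2f5, E2f8 and Tfdp2) and 2 lower (E2f6 and Rb1), with a median of 0.69, and the same 7 without ESC replicate 2. Of 8 genes that copy chromatin marks and histones, 3 were called higher (Hells, Nasp and Hat1) and 1 lower (Rbbp4) from MEF to Cont day 3. From Cont day 10 to ESC all 8 were called higher, with a median of 2.25, and 7 without ESC replicate 2 (not Asf1a). Of 6 S phase kinase genes and their activators, 2 (Cks2 and Skp2) were called higher from MEF to Cont day 3. All 6 were called higher from Cont day 10 to ESC, with and without ESC replicate 2. Of 18 mitosis genes, 9 were called higher and 1 (Kif20a) lower from MEF to Cont day 3, with a median of 0.60. From Cont day 10 to ESC 16 were called higher, with a median of 1.31, and 18 without ESC replicate 2.

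Markers of other cell types were followed over the same steps, and some of them changed. The neural marker Stmn2 was at 231, 244 and 185 in MEF and 4770, 5960 and 4580 in Cont day 3, at a log2 fold change of 4.65 ± 0.30 (SE, adjusted p = 2.55e-16). It was at 2730, 2460 and 2650 in Cont day 10 and 1570, 1030 and 958 in ESC, at a log2 fold change of -1.12 ± 0.26 (SE, adjusted p = 0.000444). The neural marker Tubb3 was also called higher in the earlier step and lower in the later one, and both were called lower in the later step without ESC replicate 2. The 5 keratinocyte markers summed to 4.44, 13 and 17.3 in MEF, 469, 533 and 747 in Cont day 3, 779, 996 and 1110 in Cont day 10 and 3.61, 19.3 and 30.1 in ESC. They were led by Krt6a in both Cont groups, where Krt5 was at 0, and by Sfn in ESC, where the other 4 were at 0. The 6 epithelial markers summed to 47.8, 75.2 and 90 in MEF, 160, 166 and 185 in Cont day 3, 830, 904 and 1050 in Cont day 10 and 328, 381 and 395 in ESC. Krt8 led them in Cont and Cdh1 in ESC, and Epcam and Cldn7 were at 0 in MEF. Of 7 markers of macrophages and other blood cells, 6 are in the table, and they summed to 464, 1160 and 1950 in MEF, 380, 968 and 1110 in Cont day 3, 611, 2490 and 2630 in Cont day 10 and 12.9, 18.3 and 34.3 in ESC. Lyz2 led them in MEF and Cont, and in ESC Ptprc, Csf1r, Tyrobp and Fcer1g were at 0. The 5 endothelial markers summed to 19.5, 19.9 and 22.2 in MEF, 7.78, 10.7 and 13.8 in Cont day 3, 13.1, 17.3 and 19.8 in Cont day 10 and 20.1, 25.3 and 32.1 in ESC, with Cdh5 at 0 in these 4 groups. The 2 of 5 erythroid markers in the table were at 0 in every MEF and ESC library and summed to at most 5.19 in Cont day 3. Their part in the changes of the replication genes was not tested. Some of these markers also differed between +Sm3CA and Cont on the days when replication genes were called. On day 8 the keratinocyte markers summed to 575, 742 and 829 in Cont and 304, 365 and 464 in +Sm3CA, without overlap. Krt14 and Krt6a were called lower, at log2 fold changes of -1.02 ± 0.25 and -0.95 ± 0.25 (SE, adjusted p = 0.0361 and 0.0493). The epithelial marker Cdh1 and the fibroblast marker Lum were called higher (0.76 ± 0.19 and 2.59 ± 0.66, adjusted p = 0.0443 and 0.0452). The pluripotent markers summed to 65, 78.1 and 80.2 in Cont and 104, 115 and 124 in +Sm3CA. The blood markers overlapped, at 1520, 1560 and 2520 in Cont and 1160, 1260 and 2380 in +Sm3CA, and those tested were not called. On day 10 the blood markers summed to 855, 935 and 1570 in +Sm3CA, the keratinocyte markers to 243, 421 and 557 and the fibroblast markers to 1270, 1520 and 1620, against 1310, 2580 and 2650 in Cont. The pluripotent markers summed to 417, 617 and 1000 in Cont day 10 and 1050, 1190 and 2320 in +Sm3CA day 10, where every library was higher. The neural marker Mbp was called lower in +Sm3CA on day 8, at a log2 fold change of -4.98 ± 0.72 (SE, adjusted p = 0.000175), and higher on day 10, at 3.70 ± 0.80 (SE, adjusted p = 0.00367). Stmn2 and Tubb3 were called on neither day. The part of these cells in the changes of Prim1, Pcna, Rrm2, Gins1 and Dut was not tested.

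The 48 genes lie on 17 chromosomes of GRCm38, with 8 of them on chromosome 5. Of the 48, 10 overlap another gene of the table on the opposite strand, namely Orc6, Mcm7, Gins2, Rfc2, Rfc4, Rfc5, Fen1, Tk1, Ccne2 and Chaf1a. Tk1 overlaps Afmid, Ccne2 overlaps Ints8, and Mcm7 overlaps Ap4m1 and Cops6. The study cites an STRT protocol that is strand-specific by its title, but the files do not state whether reads were counted by strand. Reads of these 10 genes may therefore include reads of their partners. A pseudogene of Tyms, Tyms-ps, has its own counts in the table.
RefSeq promoters (GRCm38.p6, 250 bases before to 50 after the start) were found for 38 of the 48 genes, 79.2%, so no comparison over the list was made. No entry was found for Mcm4, Gins1, Gins2, Gins4, Rfc2, Dscc1, Prim2, Pole, Tipin and Ccne2. The E2F-type words TTTCCCGC, TTTGGCGC, TTTCGCGC and TTTGCCGC and the CCAAT box were searched on both strands. Of 27025 genes with a promoter, these words are present in 1.24%, 0.585%, 0.374%, 0.507% and 41.1%.
The promoters below are of genes named above, chosen after their values were seen: 4 genes that rose and hold such an E2F-type word, then Tk1 and Ccne1. Orc6, Mcm2, Mcm10 and Pcna, which also rose in a step above, hold none of the 4 E2F-type words in this window, and Ccne1 was called higher from Cont day 10 to ESC. Capitals mark the words found, and in Mcm5 and Mcm6 a TTTCGCGC and a TTTGGCGC overlap. No word was found in these windows of Tk1 and Ccne1. The windows are chr8:122567765-122568064, strand + for Cdt1, chr4:108579204-108579503, strand + for Orc1, chr8:75109259-75109558, strand + for Mcm5, chr1:128359656-128359955, strand - for Mcm6, chr11:117825965-117826264, strand - for Tk1 and chr7:38107441-38107740, strand - for Ccne1.
Cdt1: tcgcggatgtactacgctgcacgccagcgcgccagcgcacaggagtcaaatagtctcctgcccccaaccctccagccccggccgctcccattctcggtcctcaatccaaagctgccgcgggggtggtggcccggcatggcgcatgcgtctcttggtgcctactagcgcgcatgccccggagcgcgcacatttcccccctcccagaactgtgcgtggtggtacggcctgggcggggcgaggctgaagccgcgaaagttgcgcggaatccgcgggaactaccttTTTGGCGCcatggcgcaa
Orc1: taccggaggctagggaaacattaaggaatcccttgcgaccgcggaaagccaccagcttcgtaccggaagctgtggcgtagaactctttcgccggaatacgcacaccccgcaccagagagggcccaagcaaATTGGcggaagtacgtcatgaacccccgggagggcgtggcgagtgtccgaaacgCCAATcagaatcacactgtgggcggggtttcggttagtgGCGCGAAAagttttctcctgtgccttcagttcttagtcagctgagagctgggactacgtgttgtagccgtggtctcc
Mcm5: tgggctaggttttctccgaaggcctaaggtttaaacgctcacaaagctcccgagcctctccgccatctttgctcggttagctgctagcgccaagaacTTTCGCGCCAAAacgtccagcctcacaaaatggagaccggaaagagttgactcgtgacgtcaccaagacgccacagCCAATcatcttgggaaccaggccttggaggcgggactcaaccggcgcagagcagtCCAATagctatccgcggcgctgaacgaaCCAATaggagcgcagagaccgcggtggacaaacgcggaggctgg
Mcm6: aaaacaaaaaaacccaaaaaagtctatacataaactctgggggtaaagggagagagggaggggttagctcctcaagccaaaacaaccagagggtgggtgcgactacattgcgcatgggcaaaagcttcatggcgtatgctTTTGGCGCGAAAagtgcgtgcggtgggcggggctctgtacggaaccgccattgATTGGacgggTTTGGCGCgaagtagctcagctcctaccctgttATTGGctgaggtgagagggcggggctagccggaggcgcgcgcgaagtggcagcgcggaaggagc
Tk1: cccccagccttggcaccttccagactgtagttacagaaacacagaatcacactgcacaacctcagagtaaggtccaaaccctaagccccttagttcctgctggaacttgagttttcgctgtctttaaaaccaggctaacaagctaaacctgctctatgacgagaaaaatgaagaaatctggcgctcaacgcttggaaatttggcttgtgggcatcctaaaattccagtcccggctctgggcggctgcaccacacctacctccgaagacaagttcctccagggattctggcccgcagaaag
Ccne1: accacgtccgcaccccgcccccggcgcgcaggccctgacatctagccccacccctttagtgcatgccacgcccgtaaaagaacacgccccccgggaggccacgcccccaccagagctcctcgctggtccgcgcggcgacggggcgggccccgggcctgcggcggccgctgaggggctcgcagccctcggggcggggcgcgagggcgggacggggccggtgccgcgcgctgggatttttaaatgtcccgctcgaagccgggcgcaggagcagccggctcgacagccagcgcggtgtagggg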

How the data were processed

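The table holds read counts that the authors deposited for 84 wells. The submitters' processing notes name Bowtie 0.12.9, DESeq2 1.6.3 and mm10 without a role for each. The values are reads, not molecules, so PCR copies are included and the reads behind a value give its counting error only. Wells of a replicate were summed (3 wells, 2 on day 10) to 30 libraries. The replicates are labelled biological.

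Tests used edgeR 4.0.16 (TMM, filterByExpr, quasi-likelihood, Benjamini-Hochberg over all genes tested), with all 30 libraries for steps and the 24 reprogramming libraries for +Sm3CA against Cont. DESeq2 1.42.0 gave size factors and a second test. R 4.3.3, Python 3.11.15 and pandas 2.3.3 were used. The members and lists were chosen with earlier results of these data known. Values in every library are given for Mcm2 to Mcm7, Pcna, Cdc6, Cdt1, Ccne1, Ccne2, Rrm2, Tyms, Tk1, Slbp and Chaf1a. Fold changes are given for the 3 highest and 3 lowest signed log2 fold changes among the genes called in each step and for each gene called in +Sm3CA against Cont. Other genes are named where a list's count was 5 or fewer, at the ends of a range or for promoters. Those were chosen after their values were seen. Levels of different genes are not compared with each other.

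The series text pairs replicates over days. Deviations from group means correlated between same-numbered libraries of neighbouring days at means of -0.0445 to 0.0572, so the replicate block was run as an alternative, for steps between days on the 24 reprogramming libraries. Other alternatives were scaling, the filter, 1 well per replicate, DESeq2, other sets of libraries and leaving out each library. Leaving out ESC replicate 2 was given beside each ESC result after the data were seen. Positions are from GENCODE vM21 (GRCm38) and promoters from RefSeq.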

Additional observations from a re-analysis of the deposited data

Results flagged for a closer look

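Tipin was called higher from day 3 to day 6 in +Sm3CA, and its change in Cont, at a log2 fold change of -0.14 ± 0.21 (SE, adjusted p = 0.798), did not pass the test. Its mean log2 change between same-numbered libraries was -0.14 in Cont and 0.79 in +Sm3CA, and every same-numbered pair was lower on day 6 in Cont and higher in +Sm3CA. The +Sm3CA change minus the Cont change was 0.94. The difference was not tested. In +Sm3CA against Cont, Tipin was at -0.46 ± 0.18 on day 3 and 0.49 ± 0.18 on day 6 (SE, adjusted p = 0.817 and 0.992). The gap at day 10 against that at day 3 was 0.79 ± 0.25 (SE, adjusted p = 0.131). Tipin passed in neither day's comparison nor in the test of the gap. Groups of 3 libraries were not tested for outlying samples.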

How the results depend on the processing

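Of 132 calls of a replication gene in a comparison, 89 were kept in every alternative run, 43 were lost in at least 1 and 0 were reversed. Counts of genes called that moved by over 1.5 times are given here, and the cause was not tested. From Cont day 3 to day 6, against 1, the count was 3 with DESeq2 size factors, 2 with 1 well per replicate, 3 with DESeq2, 10 in a fit of these 2 groups alone and 6 with the replicate block. From MEF to Cont day 3 it was 14 with 1 well per replicate, against 23, and from Cont day 8 to day 10 it was 3, against 5. From +Sm3CA day 6 to day 8, against 2, it was 1 with 1 well per replicate, 5 with DESeq2, 1 in a fit of the 2 groups and 7 with the block. From +Sm3CA day 8 to day 10 the block gave 4, against 2. For +Sm3CA against Cont with all 30 libraries in the fit it was 1 on day 8, against 3, and 1 on day 10, against 2, as it was on day 10 with total counts.

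Leaving out 1 library gave 19 to 24 called from MEF to Cont day 3, 0 to 1 from Cont day 3 to day 6, 0 to 0 from Cont day 6 to day 8, 1 to 4 from Cont day 8 to day 10, 39 to 43 from Cont day 10 to ESC and 43 to 48 from MEF to ESC. In +Sm3CA it gave 2 to 5 from day 3 to day 6, 0 to 4 from day 6 to day 8 and 1 to 4 from day 8 to day 10. Against Cont it gave 0 to 0 on day 3, 0 to 0 on day 6, 1 to 5 on day 8, 0 to 2 on day 10 and 0 to 0 for day 10 minus day 3.

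Total counts in place of TMM moved the median over all genes to -0.57 from Cont day 10 to ESC, against -0.15, and to -0.26 from MEF to ESC, against 0.00. Relative to that median the replication genes were at 1.6 and 2.25, and 36 of the 48 were called from Cont day 10 to ESC. The same scaling moved it to 0.15 from +Sm3CA day 6 to day 8, 0.11 for +Sm3CA against Cont on day 3 and -0.16 for day 10 minus day 3. DESeq2 size factors moved it to -0.10 from MEF to Cont day 3. Same-numbered libraries shared little of their deviation. For steps between days the block was fitted on the 24 reprogramming libraries, so the counts given with it differ in the libraries as well as in the block, and the 2 were not separated. Dscc1 had too few reads to be tested in the 24 reprogramming libraries.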
